A study of Homo sapiens with 20 samples.

Results

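CD69, CLEC2B and CLEC2D are neighboring C-type lectin genes of the natural killer gene complex on the short arm of human chromosome 12, and they were taken from the gene and isoform tables by symbol. They are 3 of 60719 genes in the tables, with 24 of 232184 isoforms. All 3 were among the 16327 genes that passed the filter on low counts, CLEC2B only through its counts in WT cells. They were chosen by their levels in CD47- against WT cells, which were known beforehand, so that difference is described here without a test.

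RNA was sequenced from WT Jurkat cells, a human T cell leukemia line of T lymphoblasts, and from JinB8, a CD47- somatic mutant of Jurkat that is a single mutant line, so that CD47 status and any other difference of that line cannot be told apart. Each line gave 10 libraries: 1 from untreated cells (UT) at 1 h, and 1 at each of 1, 3 and 6 h from cells given thrombospondin-1 (TSP1) alone, plated on immobilized anti-CD3 and anti-CD28 (CD3+CD28), or plated on both antibodies with TSP1 (CD3+CD28+TSP1). TSP1, a secreted ligand of CD47, was used at 1 μg/mL and anti-CD28 at 4 μg/mL, and both lines were kept in serum-free HITES medium in every condition. The study asked how CD47 and TSP1 alter the transcriptome during T cell activation. Each condition was sequenced once, so UT and TSP1 alone were pooled as 4 unactivated libraries of a line, set against 6 activated ones, and nothing in the descriptions says that libraries of a line came from separate cultures, so p-values measure the spread between these libraries.

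Library totals ranged from 16107921 to 31737616 counts. The CD47- library given CD3+CD28+TSP1 for 3 h had the lowest total and the TMM scaling factor farthest from 1 (1.2), and the values of CD47- cells that it moved most are also given without it. CD47 mRNA had 316 ± 42.1 CPM (read counts relative to the scaled library total, SD, n = 10) in the WT libraries and 147 ± 12.6 CPM in those of the mutant. A list of 12 T cell markers was detected in both lines, summing to 2256 to 3126 CPM in WT and 1751 to 2872 CPM in CD47- libraries. In the edgeR test described below, 5 of the 12 were called higher and 3 lower in CD47- cells, where 40.4% of all genes were called. TRAC had 184 CPM in WT and 21.8 CPM in CD47- libraries, ZAP70 220 and 116 CPM, and CD2 43.3 and 117 CPM. Of the other lists, B cell markers summed to 35.5 to 56.0 CPM in WT and 5.85 to 13.7 CPM in CD47- cells, with CD79A the most abundant, and natural killer, monocyte and fibroblast markers to at most 13.1 CPM in any library. Their part in the levels of the lectin genes was not tested.

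C-type lectins of this family are type II membrane proteins that meet receptors on other lymphocytes or partners on the same cell. CD69 is among the earliest surface markers of an activated T cell and holds back the exit of lymphocytes from lymphoid tissue by binding the sphingosine-1-phosphate receptor S1PR1. CLEC2B encodes AICL, the ligand of the natural killer receptor NKp80 (KLRF1), and CLEC2D encodes LLT1, the ligand of the inhibitory receptor CD161 (KLRB1).

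On GRCh38, CLEC2D (ENSG00000069493.15) occupies bases 9664969 to 9699553 of chromosome 12 on the plus strand. CD69 (ENSG00000110848.8) begins 52.9 kb further on and lies on the minus strand from 9752486 to 9760901. CLEC2B (ENSG00000110852.4), also on the minus strand, follows after a gap of 91.5 kb and extends from 9852369 to 9869386. The next-to-last coding exon of the isoform with most counts had the same length in all 3 genes, and it is shown here because it displays how much of their sequence the neighbors have in common. Each of these exons is 104 bp long, taken from GRCh38 in the direction of transcription at chr12:9754587-9754690 (CD69-201, minus strand), chr12:9854381-9854484 (CLEC2B-201, minus strand) and chr12:9692828-9692931 (CLEC2D-203, plus strand). Capitals mark the 47 bases (45.2%) that are identical in all 3.
CD69: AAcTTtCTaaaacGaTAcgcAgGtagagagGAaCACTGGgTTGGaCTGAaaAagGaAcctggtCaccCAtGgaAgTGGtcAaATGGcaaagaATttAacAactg
CLEC2B: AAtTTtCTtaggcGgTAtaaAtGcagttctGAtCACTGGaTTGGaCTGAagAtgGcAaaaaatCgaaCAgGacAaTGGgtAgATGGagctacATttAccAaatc
CLEC2D: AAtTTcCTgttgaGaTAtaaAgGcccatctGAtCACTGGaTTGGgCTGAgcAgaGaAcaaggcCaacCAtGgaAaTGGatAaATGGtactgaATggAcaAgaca
The CD69 and CLEC2B exons were 58.7% identical, CD69 and CLEC2D 60.6%, and CLEC2B and CLEC2D 64.4%. The longest stretch that any pair of them shared was 17 bp, between CLEC2B and CLEC2D.

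Of the 3 genes, CD69 alone passed the edgeR test for activation in WT cells in the fit with the filter on low counts. In unactivated WT cells it was at 106 CPM in UT and 113 CPM with TSP1 at 1 h, and at 31.7 CPM at 3 h and 20.3 CPM at 6 h with TSP1. With CD3+CD28 it was at 454 CPM at 1 h, 264 CPM at 3 h and 34.5 CPM at 6 h. With CD3+CD28+TSP1 it was at 365 CPM at 1 h, 272 CPM at 3 h and 56.0 CPM at 6 h. At each time point both activated WT libraries lay above every unactivated WT library of that time, by 3.74-fold at 1 h, 8.44-fold at 3 h and 2.23-fold at 6 h on the means.

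In CD47- cells CD69 lay from 54.1 to 67.7 CPM at 1 h, 22.0 to 34.5 CPM at 3 h and 5.40 to 8.12 CPM at 6 h. Unactivated cells had 54.1 CPM in UT and 59.6 CPM with TSP1 at 1 h, then 27.1 CPM at 3 h and 6.85 CPM at 6 h with TSP1. With CD3+CD28 the values were 67.7 CPM at 1 h, 34.5 CPM at 3 h and 8.12 CPM at 6 h. With CD3+CD28+TSP1 they were 55.3 CPM at 1 h, 22.0 CPM at 3 h and 5.40 CPM at 6 h. Activated and unactivated CD47- libraries overlapped at each time point or lay on either side of each other, with means 1.08-fold, 1.04-fold and 0.987-fold apart at 1, 3 and 6 h. Without the library of lowest total, the activated library left at 3 h (34.5 CPM) stood above the unactivated one (27.1 CPM).

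**Figure D1:**
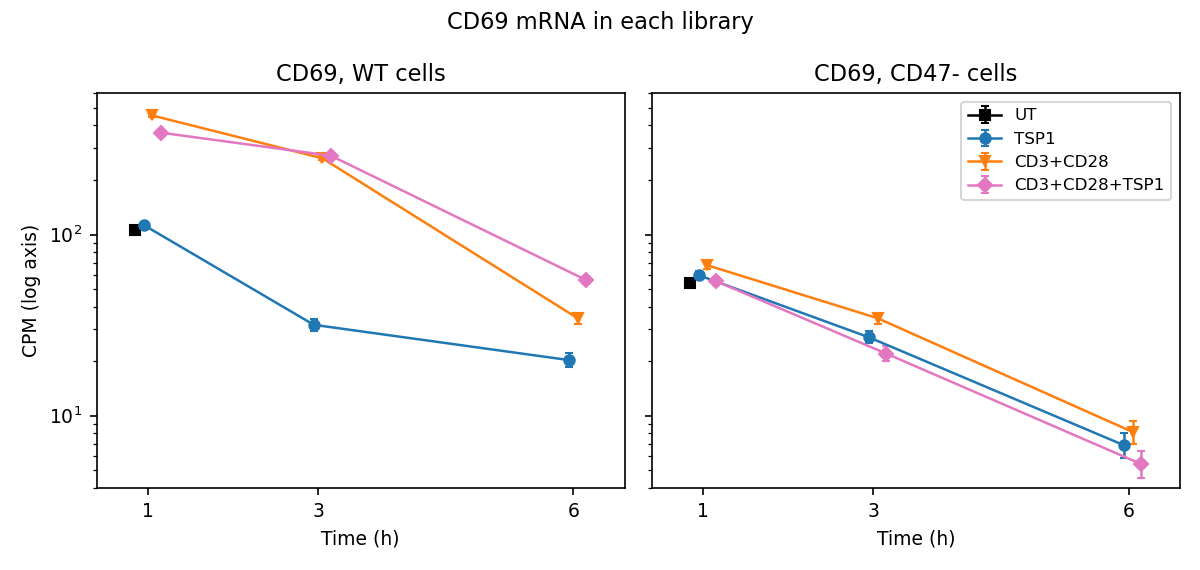
CD69 mRNA in CPM (log axis) against time in h, for WT cells (left) and CD47- cells (right), 1 point per library with its exact 95% counting interval and lines joining the libraries of a treatment. In WT cells both activated treatments lie above TSP1 alone at every time, and in CD47- cells all treatments fall together from 54.1 to 67.7 CPM at 1 h to 5.40 to 8.12 CPM at 6 h.

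In the edgeR quasi-likelihood test over all 16327 genes, activation raised CD69 in WT cells by 1.99 on the log2 scale (SE 0.223, adjusted p = 0.00131). It ranked 2 by p among the 48 genes called, which are 0.294% of those tested, with 0.257% called higher. With 1 library left out edgeR called between 11 genes (without WT TSP1 at 3 h) and 99 (without WT TSP1 at 6 h), and 76 without the CD47- library of lowest total. It called 4 with a time effect shared by both lines and 306 without a filter. For CD3+CD28 against UT, with 1 UT library, the CD69 change was 1.95 and was not called. In CD47- cells the change was 0.055 (SE 0.221, adjusted p = 0.997, edgeR), where edgeR called 0 genes (0%), with 436 at an unadjusted p under 0.05, and DESeq2 and limma voom also called 0. Without a filter edgeR called 115 genes there, and the CD69 change was 0.048, not called. The difference between the lines in the CD69 response was −1.94 on the log2 scale (SE 0.308, interval of 2 SE from −2.55 to −1.32). The WT and CD47- libraries of this interaction also enter the difference between the lines with which the genes were chosen, so its value is a description. Leaving out 1 library at a time gave −2.28 to −1.57. In this interaction edgeR called 1 gene (0.00612%), the transcription factor gene FOS, a call lost in 13 of the 20 fits with 1 library left out.

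CD69 mRNA also fell with time in both lines, whatever the treatment. In WT cells the log2 change was −0.93 from 1 to 3 h (SE 0.247, adjusted p = 0.00823, edgeR) and −2.94 from 1 to 6 h (SE 0.267, adjusted p = 2e-07). In CD47- cells it was −1.11 at 3 h (SE 0.254, adjusted p = 0.00312, edgeR, and −1.04 with adjusted p = 0.0173 without the library of lowest total) and −3.14 at 6 h (SE 0.292, adjusted p = 2.29e-07). Many genes changed over these hours: 35.7% of all tested in WT and 36.9% in CD47- cells at 3 h, and 52.8% and 53.1% at 6 h. The change at 6 h differed by −0.21 between the lines (SE 0.373, interval −0.95 to 0.54), a description for the same reason. The 3 h call in WT cells was lost without the library given CD3+CD28 at 1 h (log2 change −0.80, adjusted p = 0.0552, edgeR) or that given TSP1 at 3 h (−0.49, adjusted p = 0.071). Untreated cells were sampled at 1 h alone, so time in culture without any agent was not measured.

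In the edgeR fit with the filter on low counts, TSP1 did not pass the test for any of the 3 genes on activated cells. The log2 change of CD69 with TSP1 was 0.093 in WT (interval −0.41 to 0.60) and −0.49 in CD47- cells (interval −1.05 to 0.073), with edgeR adjusted p of 1 and 0.504, and the latter was −0.40 without the library of lowest total. That of CLEC2D was 0.034 in WT (interval −0.26 to 0.33) and 0.23 in CD47- cells (−0.075 to 0.53), and that of CLEC2B in WT cells −0.16 (−0.50 to 0.18). The CLEC2D value in CD47- cells was 0.059 without the CD3+CD28+TSP1 library of 3 h, which has the lowest total, and 0.45 without that of 6 h, and it passed in neither fit. edgeR called 0 genes (0%) for TSP1 in either line, with 311 genes in WT and 1688 in CD47- cells at an unadjusted p under 0.05. DESeq2 called 1 gene in WT and 0 in CD47- cells, and limma voom 0 in both. Without a filter edgeR called 82 genes in WT and 371 in CD47- cells. CD69 in CD47- cells was called in that fit (−0.50, SE 0.103, adjusted p = 0.000424, edgeR). With the filter its log2 change was nearly the same and its SE was 0.28.

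**Figure D2:**
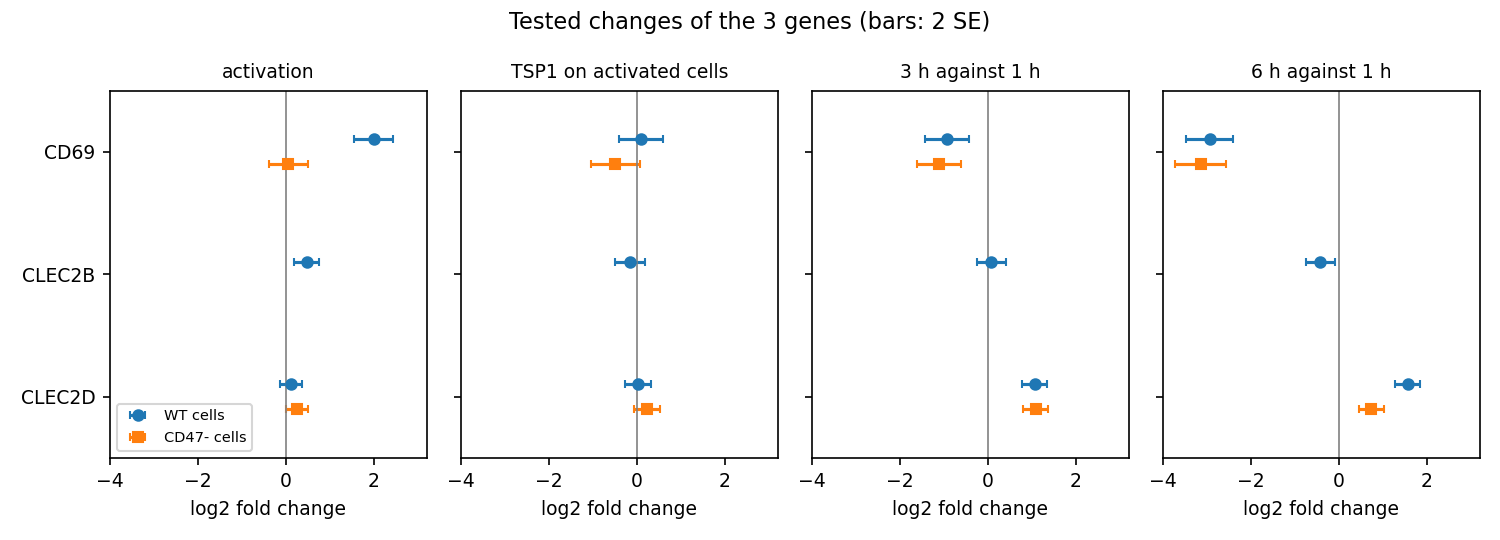
Log2 fold changes of the 3 genes (rows) for activation, TSP1 on activated cells, 3 h and 6 h against 1 h, in WT (circles) and CD47- cells (squares), with bars of 2 SE from the edgeR model. CD69 stands at 1.99 for activation in WT and at 0.055 in CD47- cells, and CLEC2B has no CD47- point because it was not tested there.

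Over all 20 libraries, CD69 averaged 172 ± 156 CPM over the WT and 34.1 ± 23.7 CPM over the CD47- libraries (SD, n = 10 each), where the SD includes treatment and time. It was lower in CD47- cells in 10 of the 10 pairs matched for treatment and time, by 1.17-fold to 12.4-fold, but the lines overlapped. The 6 highest of the 20 levels were WT libraries, the 4 activated at 1 and 3 h and the 2 unactivated at 1 h, and the 3 lowest were the CD47- libraries of 6 h. Of the 19 steps between neighboring levels in that order, 10 lay within the counting intervals. The fitted log2 difference was −2.33 over all libraries, −2.12 with the 10 matched pairs as a block, −2.88 in the 6 activated pairs alone and −0.85 in the 4 unactivated pairs alone. Between the lines 40.4% of all genes tested were called, and 20.6% of those tested were called lower in CD47- cells. In bulk RNA, fewer expressing cells and less RNA per cell cannot be told apart.

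CLEC2B mRNA was present in every WT library and nearly absent from CD47- cells. In unactivated WT cells it was at 15.8 CPM in UT and 16.4 CPM with TSP1 at 1 h, 11.2 CPM at 3 h and 12.7 CPM at 6 h. With CD3+CD28 it was at 20.1, 28.3 and 13.8 CPM at 1, 3 and 6 h. With CD3+CD28+TSP1 it was at 18.1, 21.6 and 14.9 CPM. At each time both activated WT libraries lay above the unactivated ones, by 1.19-fold at 1 h, 2.23-fold at 3 h and 1.13-fold at 6 h.

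The activation of CLEC2B in WT cells came to 0.47 on the log2 scale (SE 0.142) and did not pass (adjusted p = 0.316, edgeR). It was 0.22 without the WT library of TSP1 at 3 h and up to 0.59 without another, and passed in none of these 20 fits. Its change at 6 h against 1 h was −0.42 (SE 0.165, adjusted p = 0.042, edgeR), a call lost with DESeq2 (adjusted p = 0.0606) and without any 1 of 6 libraries: the WT libraries of UT, of TSP1 at 1 h, and of CD3+CD28 or CD3+CD28+TSP1 at 6 h, and the CD47- libraries of CD3+CD28 at 1 or 6 h, with edgeR adjusted p up to 0.211 and log2 changes down to −0.29. At 3 h it was 0.076 (SE 0.166, adjusted p = 0.759, edgeR). Leaving out the WT library of TSP1 at 3 h brought this under the threshold (log2 change 0.39, adjusted p = 0.0479, edgeR), and leaving out the WT library of CD3+CD28 at 1 h or 3 h turned its sign.

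In CD47- cells the CLEC2B counts were between 1 and 3 in each library, 15 in all, against 4011 in WT cells. The scaled ratio of these sums was 275 (exact 95% counting interval from 167 to 492), and single pairs differed by 96.1-fold to 666-fold. The CD47- levels of 0.0336 to 0.132 CPM lay near 3 counts, which stand for 0.101 to 0.155 CPM in these libraries, so treatments and times could not be compared there. The lines did not overlap, as the choice of the gene on this difference implies. The size of the fitted log2 difference, −8.00, is set in part by the model's prior count.

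Genes beside CLEC2B had few counts in either line. The lncRNA AC091814.1 lies on the opposite strand (chr12:9867027-9869808) and overlaps the 5′ end of CLEC2B, with 41 counts over 9 of 10 WT libraries and 0 in CD47- cells. Because the strand setting of the counting is not given in the sources used here, reads of this overlap cannot be assigned with certainty. KLRF1, the receptor gene between CD69 and CLEC2B, had 11 counts in WT and 0 in CD47- libraries, and KLRF2, on the other side of CLEC2B, had 6 and 0. A sum of 0 in 10 libraries allows up to 3 counts. CLEC2A, a further member of the family, had 0 counts in both lines.

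**Figure D3:**
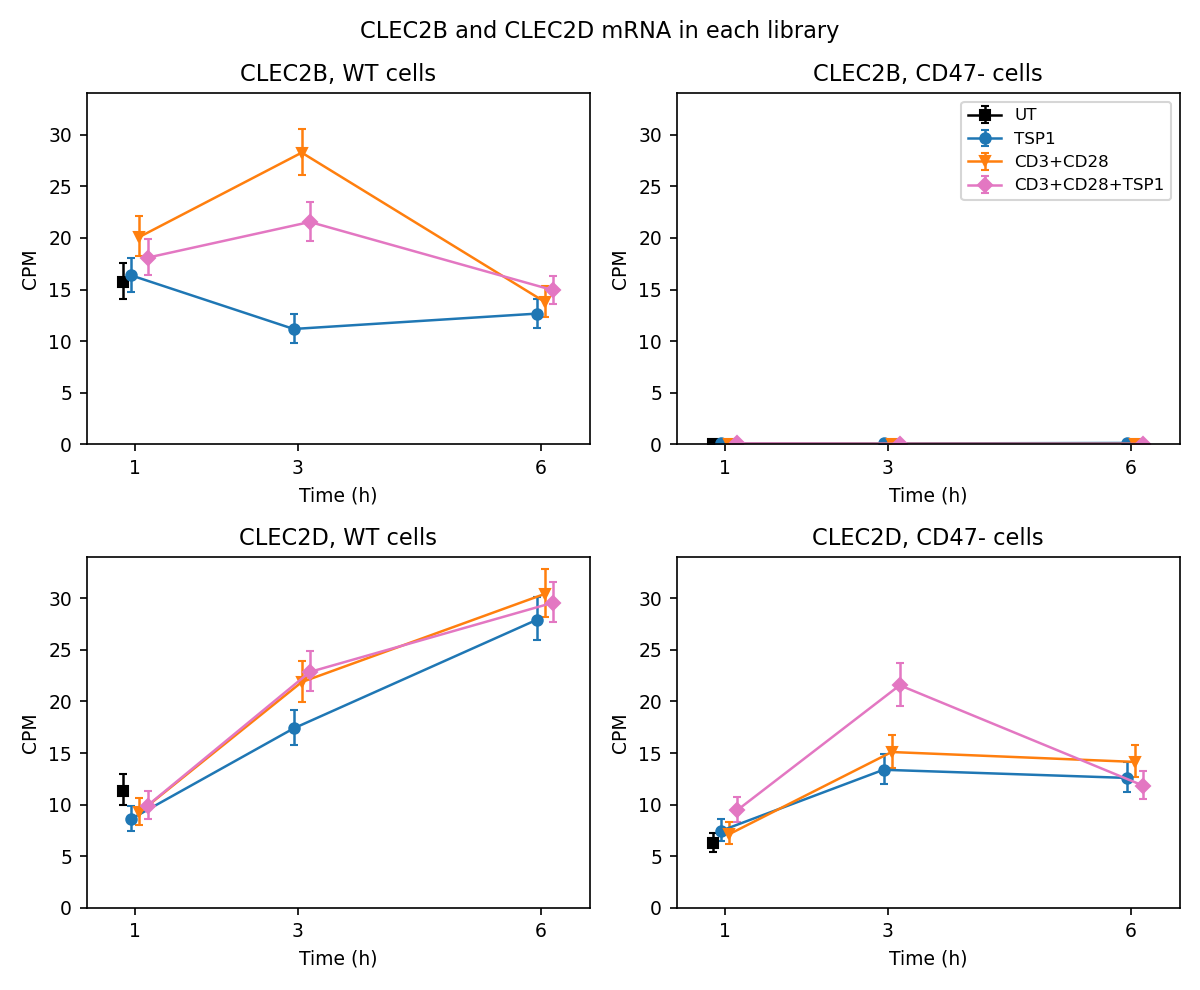
CLEC2B (top) and CLEC2D (bottom) mRNA in CPM against time in h for WT (left) and CD47- cells (right), on a common linear scale from 0, 1 point per library with its exact 95% counting interval. CLEC2B lies between 11.2 and 28.3 CPM in WT and on the axis in CD47- cells, while CLEC2D rises from 1 h to 6 h in WT cells and is highest at 3 h in CD47- cells.

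CLEC2D was higher at 3 and 6 h than at 1 h in both lines, where CD69 was lower, but from 3 to 6 h both genes were lower in CD47- cells in each treatment. In WT cells it was at 11.4 CPM in UT, 8.62 CPM with TSP1, 9.24 CPM with CD3+CD28 and 9.91 CPM with CD3+CD28+TSP1 at 1 h. At 3 h TSP1, CD3+CD28 and CD3+CD28+TSP1 gave 17.4, 21.9 and 22.9 CPM, and at 6 h 27.9, 30.4 and 29.6 CPM. The 3 time points did not overlap in WT cells, with means of 9.78 ± 1.2 CPM (SD, n = 4), 20.7 ± 2.92 CPM (n = 3) and 29.3 ± 1.28 CPM (n = 3).

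In CD47- cells CLEC2D started at 6.28 CPM in UT, 7.47 CPM with TSP1, 7.14 CPM with CD3+CD28 and 9.48 CPM with CD3+CD28+TSP1 at 1 h. At 3 h the last 3 treatments gave 13.4, 15.1 and 21.6 CPM, and at 6 h 12.6, 14.1 and 11.8 CPM. The highest of these is the library with the lowest total. The means were 7.59 ± 1.35, 16.7 ± 4.32 and 12.9 ± 1.17 CPM, so the 6 h libraries stood above those of 1 h and overlapped with those of 3 h.

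By edgeR, CLEC2D rose from 1 to 3 h in both lines, with log2 increases of 1.06 (WT, SE 0.142, adjusted p = 3.21e-05) and 1.08 (CD47-, SE 0.143, adjusted p = 3.67e-05, and 0.94 with adjusted p = 0.000234 without the library of lowest total). At 6 h against 1 h it was up by 1.56 in WT (SE 0.139, adjusted p = 1.64e-07, edgeR), against 0.74 in CD47- cells (SE 0.144, adjusted p = 0.00044). The change from 1 to 6 h was lower in CD47- cells by a fitted log2 difference of −0.83 (SE 0.202, interval −1.23 to −0.42). The 6 h libraries enter the difference between the lines with which the genes were chosen, so this value is a description. Activation did not pass the test for CLEC2D, with log2 changes of 0.12 in WT (SE 0.12, adjusted p = 0.911, edgeR) and 0.25 in CD47- cells (SE 0.123, adjusted p = 0.991), and their difference was 0.14 (interval −0.21 to 0.48), or 0.063 without the library of lowest total. With 1 library left out the WT change lay between 0.015 (without TSP1 at 3 h) and 0.21 (without UT), and that of CD47- cells between 0.17 (without TSP1 at 3 h) and 0.35 (without CD3+CD28+TSP1 at 6 h).

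Over all conditions CLEC2D averaged 18.9 ± 8.77 CPM over the WT and 11.9 ± 4.61 CPM over the CD47- libraries (SD, n = 10 each), lower in CD47- cells in 10 of 10 pairs by 1.05-fold to 2.5-fold. The lines overlapped at 1 h. At 3 h they overlapped through the CD47- library of lowest total (21.6 CPM) alone, the other CD47- libraries (13.4 and 15.1 CPM) being below the lowest WT library (17.4 CPM), and at 6 h the lowest WT library (27.9 CPM) was above the highest CD47- library (14.1 CPM). In the order of its 20 levels 17 of 19 neighboring steps lay within the counting intervals. The pseudogene NPM1P7 (chr12:9695384-9696227) lies inside the last exon of CLEC2D on the same strand, so reads there may be divided between both, and it had 1.81 ± 0.70 CPM in the WT and 1.46 ± 0.57 CPM in the CD47- libraries.

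Levels of different genes were compared per length of transcript, as CPM per kb of each isoform summed over the gene, with isoform lengths of GENCODE version 44 for counts made on version 36. In WT cells CD69 was at 116 ± 103, CLEC2B at 13.5 ± 4.14 and CLEC2D at 6.76 ± 2.69 CPM per kb (SD, n = 10). CD69 was the highest of the 3 in 10 of 10 WT libraries, and CLEC2B was above CLEC2D in 9 of 10, with ratios from 0.932 to 4.01. In CD47- cells the means were 22.7 ± 15.5, 0.0611 ± 0.0355 and 4.37 ± 1.41 CPM per kb. There CD69 was above CLEC2D in 9 of 10 libraries, with ratios from 0.886 to 15.7, the lowest at 6 h.

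Within the WT libraries log2 CPM of CD69 and CLEC2B had a Pearson correlation of 0.84 (Spearman 0.88, n = 10), CD69 and CLEC2D of −0.58 in WT and −0.55 in CD47- cells, and CLEC2B and CLEC2D of −0.18 in WT cells. These points share libraries, treatments and times. Among 13149 genes, those whose pattern was most like CD69 in both lines were EGR1 (r = 0.96 in WT and 0.94 in CD47- cells), GEM (0.94 and 0.99) and NR4A1 (0.94 and 0.96). Most like CLEC2B within the WT libraries were SH2B3, SH2D2A and ACSL4, with r from 0.91 to 0.92. Most like CLEC2D in both lines were FAM30A (0.95 and 0.96), MFSD4B (0.95 and 0.96) and CCDC69 (0.96 and 0.94). By Spearman correlation the 3 nearest genes were other ones for CD69 and CLEC2B, and 1 of the 3 was shared for CLEC2D.

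CD69 belongs to the early response of T cells to receptor signals, and 17 further genes of that response were listed, of which 13 passed the filter. In WT cells 7 of the 13 rose with activation, against 0.257% of all genes, none fell, and their median log2 change was 0.96, against a median of −0.0037 over all genes. They were DUSP2, a phosphatase of MAP kinases (log2 change 1.85), the transcription factor genes EGR2 (1.83), EGR1 (1.77), NR4A1 (1.62) and FOS (1.42), the cytokine gene TNF (0.96) and the immediate early gene IER2 (0.83), with edgeR adjusted p from 0.00049 to 0.0344. With 1 library left out 5 to 8 rose, where 11 to 99 of all genes were called in either direction. With a time effect shared by both lines 2 rose, where 4 of all genes were called. For CD3+CD28+TSP1 against TSP1 5 rose, where 15 of all genes were called. No count is given here for CD3+CD28 against UT, with 1 UT library. CD69 had a larger log2 change than any of the 13. In CD47- cells 0 of the 13 passed, as did 0% of all genes, with a median of 0.20 and 12 of 13 above 0. CD40LG, the gene of CD40 ligand, was at −0.028 in WT and −0.12 in CD47- cells.

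**Figure D4:**
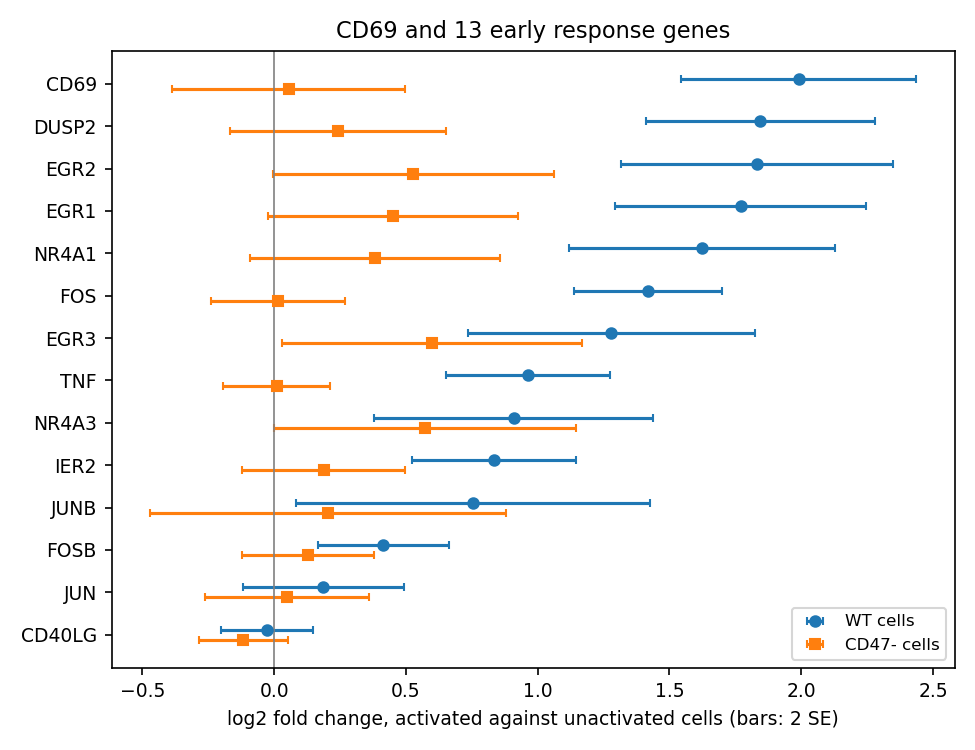
Log2 fold change of activated against unactivated cells for CD69 and the 13 tested early response genes (rows, ordered by the WT value), in WT (circles) and CD47- cells (squares), with bars of 2 SE. CD69 has the largest WT value (1.99) and a CD47- value of 0.055, and FOS, at 1.42 and 0.013, is the gene whose difference between the lines was called by edgeR, in the fit of all libraries and in 7 of 20 with 1 library left out.

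The difference between the lines in activation was called by edgeR for FOS (−1.41, adjusted p = 0.0239). With 1 library left out the FOS difference lay from −1.61 to −1.24 and was called in 7 of 20 fits (edgeR adjusted p from 0.000281 to 0.224), and it was not called with a shared time effect (−1.30, adjusted p = 0.98) or for either single activation contrast. By edgeR the values of the other genes of the list lay from −1.60 for DUSP2 (adjusted p = 0.227) to −0.089 for CD40LG. From 1 to 6 h, 12 of the 13 fell in WT cells and 10 in CD47- cells, with median log2 changes of −3.20 and −1.09, and 7 fell less in CD47- cells in the test of the difference. Over all genes 26.2% and 27.2% were called lower at 6 h in WT and CD47- cells, and in the test of the difference 16.1% were called, 6.34% in the direction of those 7. With 1 library left out, that test called 5 to 8 of the listed genes in this direction and 1513 to 3662 of all genes. The changes of CD69 over this time were −2.94 and −3.14. Of 11 transcription factors known to act at the CD69 promoter and enhancers, all passed the filter. EGR1 and FOS rose with activation in WT cells, where 0.257% of all genes did, 0 of the 11 passed in CD47- cells, where 0% of all genes did, and RELA, NFKB1, RUNX1, RUNX3, SP1, GATA3 and ETS1, with EGR3 and JUN, did not pass in either line. The lists were written with earlier results of these data known.

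Receptors and partners of the 3 proteins were looked up from a list of 7. KLRB1, the receptor gene of the CLEC2D protein, had 14 counts in WT and 1 in CD47- libraries, and KLRF1, the receptor gene of the CLEC2B protein, had 11 and 0. S1PR1, the partner of CD69 at the cell surface, had 17.2 ± 1.17 CPM in the WT libraries and 51.3 ± 8.31 CPM in the CD47- libraries (SD, n = 10). Its fitted log2 difference was 1.57 (SE 0.0879), a description because this list was written with earlier results of these data known. Activation changed S1PR1 by 0.029 in WT and −0.094 in CD47- cells, neither of which passed. Between the lines 3 of the 4 listed genes that passed the filter were called higher in CD47- cells and 0 lower. Of all genes tested, 40.4% were called in either direction and 20.6% were called lower in CD47- cells. Of the reported ligands of CD69, LGALS1 (galectin-1) was at 3.33 and 7.14 CPM, MYL12A at 164 and 201 CPM and MYL12B at 160 and 145 CPM in WT and CD47- cells, and MYL9 had 9 counts in each line.

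Of 24 genes of the natural killer complex and the lectin genes beside it, 5 passed the filter: the 3 lectin genes, KLRG1 and GABARAPL1 (10.0 CPM in WT), an autophagy gene within the complex. The latter was higher in CD47- cells by a fitted 0.87 on the log2 scale (SE 0.219). Of all genes 40.4% were called between the lines. This list too was written with earlier results of these data known, so the GABARAPL1 difference is a description. KLRG1, a lectin receptor gene of lymphocytes, passed only through its counts in CD47- cells, with 0.392 ± 0.159 CPM in WT and 1.32 ± 0.487 CPM in CD47- libraries, and is given without a test. The pseudogene AC010186.2 and the lncRNA AC010186.3, upstream of CLEC2D on the same strand, had 10.8 ± 1.64 and 6.32 ± 1.75 CPM in the WT libraries and 18.3 ± 4.79 and 11.2 ± 3.43 CPM in the mutant, so they stood higher where CLEC2D was lower.

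Most counts of each gene were assigned to 1 isoform, and shares of counts favor long isoforms. CD69-201, with 5 exons, took 83.7 ± 3.32% of the CD69 counts in WT and 85.7 ± 3.68% in CD47- cells (SD, n = 10), and CD69-202, which retains an intron, took 9.43% and 8.34%. CLEC2B-201 took 73.4 ± 5.37% in WT cells and the intron-retaining CLEC2B-204 took 16.4 ± 4.93%. Of 16 CLEC2D isoforms, CLEC2D-203 took 70.1 ± 6.08% in WT and 72.0 ± 4.87% in CD47- cells, and CLEC2D-210, annotated as a target of nonsense-mediated decay, took 12.9% and 12.1%. Per length of transcript the share of CLEC2D-203, which is 5277 bp long, was 36.6 ± 7.4% in WT and 36.8 ± 6.2% in CD47- cells, and that of CLEC2D-210 19.0% and 17.5%. CD69-201 had 73.1% and 76.3% per length, and CLEC2B-201 61.6% in WT cells. Shares of the 15 CLEC2B counts in CD47- cells were not compared.

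**Figure D5:**
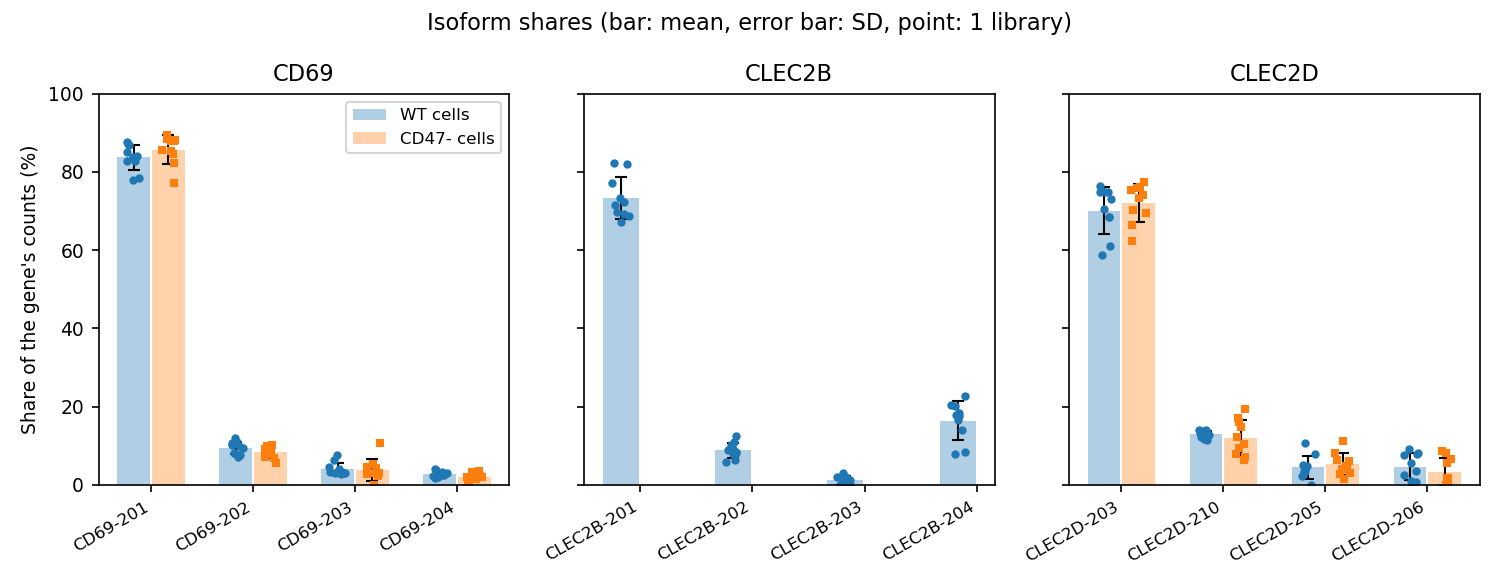
Share of the gene's counts (%) for the 4 isoforms of CD69 and of CLEC2B and for 4 of the 16 of CLEC2D, with the mean (bar), SD (error bar) and each library (point) of WT and CD47- cells. The isoforms with most counts lie between 58.7 and 89.3% in all libraries shown, and CLEC2B is shown for WT cells alone.

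The share of counts of the first-named isoform of each gene was compared between activated and unactivated libraries by an exact two-sided permutation test within time points, whose 54 arrangements allow no p under 0.0185. For CLEC2B-201 in WT cells, activated minus unactivated, it was −6.05 points, with an exact p of 0.0556 (0.278 adjusted over 5 tests). For CD69-201 the differences were 1.47 points in WT and 0.435 points in CD47- cells, and for CLEC2D-203 0.588 and 0.343 points, with exact p from 0.407 to 0.926. With that limit a single isoform could not pass the adjustment over 5 tests, whatever the size of its shift.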

How the data were processed

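RNA from 20 libraries, 10 per line, was analyzed. Per the labels and the methods of the study, the authors used Cutadapt 1.18 for trimming and STAR 2.4.2a for alignment to GRCh38, and counted the reads with RSEM 1.3.3 on GENCODE version 36. The deposited values are RSEM expected counts per gene and isoform, with no normalization. The batch that the study corrected with ComBat and the strand setting are not given in the sources used here. Each table held 2 columns of no sample of the series, which were not used. Positions and isoform lengths came from GENCODE version 44.

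Expected counts were rounded and fitted in edgeR 4.0.16 (R 4.3.3) by quasi-likelihood tests, after filterByExpr by line (minimum count 10, minimum total 15) and TMM scaling. The model had, in each line, a level for unactivated, CD3+CD28 and CD3+CD28+TSP1 cells and terms for 3 and 6 h. Activation is the mean of both activated levels against the unactivated one, and differences between the lines are interactions. Benjamini-Hochberg adjustment covered all 16327 genes, with a threshold of 0.05. CLEC2B was not tested in CD47- cells, where it had under 10 counts. The spread of 1 library per condition was estimated across the conditions of the model. Pearson correlations used log2 CPM with a pseudocount of 0.5. Intervals of CPM values are exact Poisson intervals at 95% and cover counting error only. The scripts were tested on simulated data.

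Alternatives were DESeq2 1.42.0, limma 3.58.1 voom on quantile-normalized values, scaling by upper quartiles, no filter, a filter of 1 CPM in 10 libraries, other activation contrasts, a shared time effect, a block of matched pairs, the activated or unactivated pairs alone, and each library left out. A fit of the 1 and 3 h libraries was added after seeing the data.

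The 3 genes are always named, with listed partners and called members of the lists and, for likeness, the 3 genes with the highest correlation in the lower of both lines (CLEC2B in WT alone). The members and lists were chosen with earlier results of these data known.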

Additional observations from a re-analysis of the deposited data

Results flagged for a closer look

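CLEC2D changed from 1 to 6 h differently in the lines, with a log2 difference of −0.83 in the interaction term of the edgeR model. It is given as a description, because the libraries of 6 h enter the difference between the lines by which the gene was chosen. All 3 WT libraries of 6 h were above all of 3 h, while in CD47- cells the 6 h libraries were at 11.8 to 14.1 CPM and those of 3 h at 13.4 to 21.6 CPM.

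Among the 6 activated CD47- libraries, CLEC2B in that given CD3+CD28+TSP1 for 1 h, at 0.0816 CPM, stood apart from the rest. It rests on 2 counts against 1 in each of the other 5. Its exact counting interval, 0.00988 to 0.295 CPM, covers the levels of the other 5. Such a gap was looked for in 12 groups of 4 or 6 libraries. Chance gives it in about 1 of 20 for continuous values, a rate that does not apply to counts of 1 and 2.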

How the results depend on the processing

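Of 286 values under alternatives other than a left-out library, 243 kept their direction and their side of the threshold or moved little, and of 820 with 1 library left out, 767 did. CD69 activation in WT cells passed in every fit with a library left out (1.63 to 2.34, edgeR adjusted p from 6.17e-05 to 0.0116), and of the alternatives it was lost for CD3+CD28 against UT (1.95, adjusted p = 0.565, 1 UT library). That contrast turned CLEC2D activation in WT to −0.25, and CD3+CD28+TSP1 against TSP1 turned CD69 activation in CD47- cells to −0.23, neither of them called. The line difference in CD69 activation, a description because the gene was chosen on these libraries, was −1.92 with DESeq2, −2.01 with limma voom, −1.96 with a shared time effect, −1.94 without a filter and −2.25 with the 1 and 3 h libraries alone, an alternative added after seeing the data. Without a filter edgeR also called the TSP1 effect on CD69 in CD47- cells (−0.50, SE 0.103, against 0.28 with the filter). That fit called CLEC2B activation in WT (0.47, SE 0.124, against 0.142), and the line difference in the TSP1 effect on CD69 was −0.59. DESeq2 gave −0.43 for CLEC2B at 6 h, not called. The cause of these changes was not tested. The line difference of CD69 was −2.88 in activated and −0.85 in unactivated pairs, and that of CLEC2B −8.44 in activated and −7.35 in unactivated pairs. With a replicate block of the 10 matched pairs, the line differences were −2.12 (CD69), −7.98 (CLEC2B) and −0.61 (CLEC2D), and 8957 genes were called against 6596. The pairing is by treatment and time. The change of CLEC2D-203 with activation in CD47- cells was −0.28 points per length.

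Genes called between the lines were 4067 in activated and 2706 in unactivated pairs alone. Activation in WT, with 48 genes in the edgeR model reported here, gave 116 with DESeq2, 80 with voom, 306 without a filter, 15 for CD3+CD28+TSP1 against TSP1, 0 for CD3+CD28 against UT and 4 with a shared time effect. Its line difference gave 15 with DESeq2, 3 with voom, 231 without a filter, 2 with 1 and 3 h alone and 0 for either single contrast. Without a filter edgeR called 115 genes for activation in CD47- cells, and for TSP1 82 in WT, 371 in CD47- cells and 137 for the difference. DESeq2 called 1 for TSP1 in WT.

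Leaving out 1 library gave 11 to 99 genes for activation in WT, the fewest without TSP1 at 3 h and the most without TSP1 at 6 h, 0 to 8 for its line difference, 1513 to 3662 for the line difference at 6 h and 0 to 1 for TSP1 in WT. The ranges for CD69 were −1.20 to −0.49 (3 h, WT), −2.28 to −1.57 (line difference in activation), −0.52 to 0.28 (line difference at 6 h), −0.24 to 0.38 (TSP1, WT) and −0.024 to 0.094 (activation, CD47-). Those for CLEC2B in WT were −0.18 to 0.39 (3 h), −0.58 to −0.29 (6 h) and −0.33 to 0.11 (TSP1), and that for CLEC2D with TSP1 in WT was −0.046 to 0.086.

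Each condition had 1 library, and the smallest change that the tests detect was not measured. The change of CLEC2B at 6 h in WT cells was called by edgeR (log2 change −0.42) and not by DESeq2 (−0.43). Depth limits CLEC2B in CD47- cells, with 1 to 3 counts per library.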
